A study of Fragaria x ananassa with 3 samples.

Results

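The abundant new candidate miRNAs of 24 nt that did not begin with adenine numbered 74 of the 862 new candidates of this length in strawberry fruit. They were chosen from the 1310 listed miRNA names, of which 1225 were new candidates, by length, by a first base of T, C or G and by at least 50 raw reads in 1 of the 2 small RNA libraries. A T in these sequences stands for the U of the RNA. T came first in 37 of the 74, G in 21 and C in 16. These counts and the read levels follow from the rule and are given as a description with no test. A further 155 new candidates of 24 nt reached the same minimum but began with A, and they serve as the set for comparison.

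The fruit came from cultivated strawberry, Fragaria × ananassa cv. Zhangji, which was picked commercially mature and kept in bagged trays at 20 °C and a relative humidity near 85%. Storage for 24 h gave 1 small RNA library and the fruit at 0 h another, and the reads of both were compared to follow senescence after harvest. A degradome library, in which the 5′ ends of cleaved mRNAs are sequenced to find targets of small RNAs, was made from a mixture of both storage times. With 1 library per storage time no difference has a replicate check, how many fruits went into a library is not stated, and in whole fruit fewer cells of a type and less RNA per cell cannot be told apart.

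In plants, small RNAs of 24 nt are typically cut by the Dicer-like protein DCL3 from double-stranded RNA and guide DNA methylation at transposons and other repeats, whereas most miRNAs are DCL1 products of other lengths. In Arabidopsis the 5′ base helps to sort small RNAs among Argonaute proteins: those of the AGO4 group, which act in DNA methylation, mostly hold small RNAs beginning with A, AGO1, the main carrier of miRNAs, prefers U, and AGO5 prefers C. A precursor is here a stretch of genome predicted to fold back into a hairpin, and 5p and 3p name the arm that a candidate was assigned to.

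The sequences with the most reads and the most changed ones are printed first, because the results below turn on them. Capitals mark bases 2 to 8, called the seed here as a label for grouping only, and no role of these bases was tested. The 10 members with the most reads included PC-3p-1251_2450, PC-3p-5056_694, PC-3p-5672_625 and PC-3p-5200_676, which are shown further on with their families, and these 6 others:
PC-3p-391_7887: cGGGCTTGgcagaatcagcgggga
PC-3p-4834_722: gATTGGAAtgtaggaccacgtcat
PC-3p-8944_402: tGCGGATTtctttcatgatggtat
PC-3p-9947_361: gAGGACCAcatgacagtatgacgt
PC-3p-3046_1067: tGACATGTtatgttgttagattgt
PC-3p-66275_54: gTCAAATGgatggcgaagatggac
The members with the highest fold for each first base and the lowest for G were:
PC-5p-34254_105: tTATAATGaggaccaagtgaggac
PC-5p-31144_116: cACGTCAGactgtcatatggtcat
PC-5p-174962_20: gAGTCATCcgatcgtttaacaatt
PC-3p-169609_21: gTTTATATataacgggacgggaca
The 74 members had 61 distinct seeds, and 6 seeds were shared by 2 or more members, 19 members in all. The seed of 1 member was also that of a known miRNA name, and the seeds of 6 members were those of abundant candidates beginning with A.

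The 2 libraries held similar numbers of listed reads, 2998588 over all names at 24 h, against 3006293 at 0 h. The authors' normalized reads correspond to raw reads times a factor of 0.846 at 24 h and 0.917 at 0 h, and every fold below is the ratio of normalized reads at 24 h to those at 0 h. Each fold has a 95% counting interval from the raw reads, which covers counting error only and not the spread between fruits. Over the 1248 names that reached 10 raw reads in a library, the median log2 fold was 0.

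Most members had few reads, and 1 member held more than all others together. The median was 74 raw reads at 24 h, against 72 at 0 h, 27 members reached 100 raw reads in a library and 47 did not. The minimum of 50 was reached in both libraries by 49 members, at 24 h alone by 13 and at 0 h alone by 12. No member was absent from a library: the lowest value was 32 raw reads at 24 h, against 36 at 0 h. Just inside the minimum, PC-5p-376895_10 had 46 raw reads at 24 h, against 50 at 0 h, PC-5p-61159_58 had 38 and 50, and PC-5p-463933_8 had 50 and 36. Just outside it, PC-5p-88523_40 had 40 raw reads at 24 h, against 49 at 0 h.

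PC-3p-391_7887, which begins with C, stood apart by its level. It had 13828 raw reads at 24 h, against 10231 at 0 h, or 61.5% of the members' reads at 24 h (exact binomial 95% interval 60.9 to 62.1%) and 56.1% at 0 h (55.4 to 56.8%). Its 11701 normalized reads at 24 h against 9377 at 0 h gave a fold of 1.25 (1.22 to 1.28). It mapped to 2 precursors, and it shared a run of 12 or more bases with no other listed name on either strand. No partner was listed for it, and its likeness to ribosomal or other abundant RNAs was not tested.

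The next members were lower by more than an order of magnitude. PC-3p-1251_2450, beginning with T, had 705 raw reads at 24 h, against 750 at 0 h, a fold of 0.868 (0.782 to 0.963). PC-3p-4834_722, beginning with G, had 586 raw reads at 24 h, against 498 at 0 h, a fold of 1.09 (0.962 to 1.23). PC-3p-8944_402 had 645 and 431, a fold of 1.38 (1.22 to 1.56), which was the highest among the 10 members with the most reads. PC-3p-9947_361 changed little between the libraries, with 452 raw reads at 24 h, against 449 at 0 h. PC-3p-3046_1067 had 412 and 317, a fold of 1.20 (1.03 to 1.39), and PC-3p-66275_54 had 172 and 181, a fold of 0.879 (0.708 to 1.09). The intervals of PC-3p-4834_722 and PC-3p-66275_54 include equal values, and those of the other 3 with a fold given here do not.

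**Figure D1:**
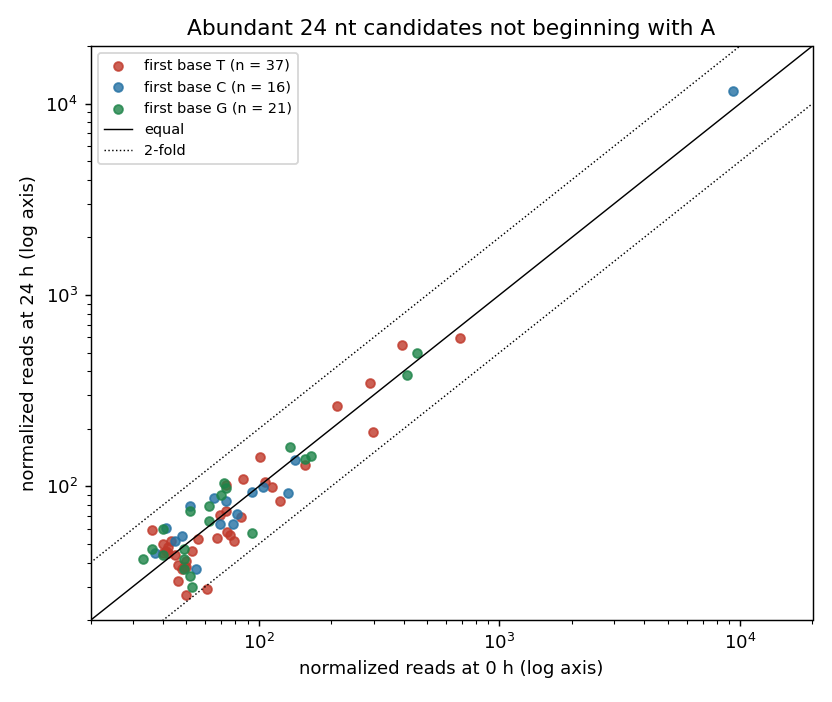
Normalized reads of the 74 members at 24 h (y axis) and at 0 h (x axis), both on log axes, with 1 point per member coloured by first base. The solid line marks equal values and the dotted lines a 2-fold difference. PC-3p-391_7887 lies alone at 11701 and 9377, and 1 member lies below the lower dotted line.

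As a sum of normalized reads, the members were higher at 24 h with PC-3p-391_7887 and nearly equal without it. All 74 together had 22484 raw reads at 24 h, against 18238 at 0 h, a fold of 1.14 (1.12 to 1.16). Without PC-3p-391_7887, the other 73 had 8656 and 8007 raw reads, a fold of 0.998 (0.968 to 1.03), or 1.08 from raw reads without scaling. The members held 0.750% of all listed reads at 24 h, against 0.607% at 0 h. Of the reads of all new 24 nt candidates they held 38.3% at 24 h, against 34.3% at 0 h. The 155 candidates beginning with A had a summed fold of 0.953 (0.935 to 0.970).

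Of the 74 members, 0 were more than 2-fold higher at 24 h and 1 was more than 2-fold lower. Among the 1248 names with at least 10 raw reads, 6.25% were more than 2-fold higher and 3.69% lower; among the 409 names with at least 50 raw reads these shares were 3.42% and 1.71%, and among the 155 candidates beginning with A they were 0% and 0.645%. Among the 816 new 24 nt candidates of at least 10 raw reads they were 2.7% and 3.92%. The member past 2-fold was PC-3p-35703_101, with 34 raw reads at 24 h, against 67 at 0 h, or 29 and 61 normalized reads, a fold of 0.475. Its interval of 0.301 to 0.718 includes a 2-fold difference. It reached 50 raw reads only at 0 h, so the minimum favours its direction. Nothing particular to the members is read from this count.

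Changes beyond counting error went in both directions and were under 2-fold except for PC-3p-35703_101. The counting interval lay wholly above equal values for 12 members and wholly below for 10. As shares these were 16.2% and 13.5%, against 5.16% and 9.03% of the candidates beginning with A. Over the 1248 names they were 9.46% and 7.21%, but these names needed only 10 raw reads, and fewer reads widen an interval. The shares over all names with at least 50 raw reads were not counted. Of the members, 13 reached the minimum only at 24 h and 12 only at 0 h, and the minimum favours a difference in these. By the sign of the fold alone, 35 members were higher at 24 h, 38 were lower and 1 was equal, and the median log2 fold was -0.02, against -0.06 for the candidates beginning with A. Raw reads without scaling, which shift every log2 fold by 0.115, turned both medians positive, to 0.09 for the members, with 44 higher and 30 lower, and 0.05 for the candidates beginning with A. Scaling by the study's mappable reads, by edgeR TMM factors or by DESeq2 size factors left both medians below 0. For the members they were then -0.023, -0.006 and -0.013. The counting intervals shift by the same amount, so the counts of 12 and 10, and any interval close to equal values, also depend on the scaling. They were not recounted from raw reads. Names are not replicates, and members that share sequence are not independent of each other.

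By first base, the members beginning with T had the lowest median. Their median log2 fold was -0.19, with 15 of 37 higher at 24 h and 22 lower. For C it was 0.10, with 8 of 16 higher, 7 lower and 1 equal, and for G 0.12, with 12 of 21 higher and 9 lower. From raw reads the medians were -0.07 for T, 0.21 for C and 0.23 for G. The order changed with the minimum of reads: with 100 raw reads in a library it was 0.12 for T, -0.02 for C and 0.12 for G, so that T was no longer lowest, and with 10 it was -0.0068, 0.21 and 0.07. Without PC-3p-391_7887 the median for C was 0. The summed folds were 0.980 (0.940 to 1.02) for T, which was 1.06 from raw reads, 1.22 (1.19 to 1.25) for C and 1.03 (0.974 to 1.09) for G, and that for C was 1.01 (0.928 to 1.09) without PC-3p-391_7887. The low median for T lay with 1 family of related sequences, described below: the 24 members beginning with T outside it had a median of 0.03, with 13 higher and 11 lower.

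**Figure D2:**
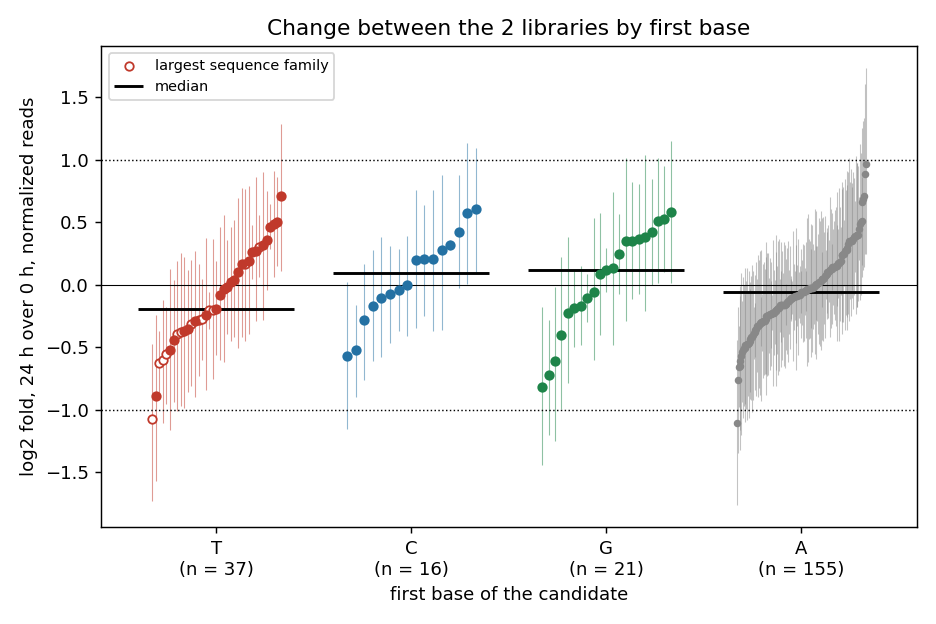
Log2 fold of normalized reads, 24 h over 0 h (y axis), for each member beginning with T, C or G and, at the right, for the 155 abundant 24 nt candidates beginning with A (x axis). Points are single candidates in rising order, thin lines their 95% counting intervals, thick lines medians and dotted lines a 2-fold difference. Open points, the largest sequence family, lie mostly in the lower part of the T column.

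Among the members beginning with T, PC-5p-34254_105 had the highest fold, with 70 raw reads at 24 h, against 40 at 0 h (1.64, 1.08 to 2.45). PC-3p-11562_311 had 169 and 110 raw reads (1.42, 1.11 to 1.82) and PC-5p-45172_80 had 121 and 80 (1.40, 1.04 to 1.88). All 3 were higher at 24 h beyond counting error, but they were picked as the highest folds. PC-5p-34254_105 reached the minimum of reads only at 24 h, so the minimum favours its direction. The lowest after PC-3p-35703_101 were PC-3p-62455_57, with 32 raw reads at 24 h, against 55 at 0 h (0.540, 0.336 to 0.845), and PC-3p-5056_694, with 229 and 325 (0.648, 0.547 to 0.773). Of these, PC-3p-62455_57 reached the minimum only at 0 h, which likewise favours its direction.

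Among those beginning with C, PC-5p-31144_116 had the highest fold, with 93 raw reads at 24 h, against 57 at 0 h (1.52, 1.07 to 2.13). PC-5p-186954_19 had 72 and 45 (1.49, 1.00 to 2.19) and PC-5p-136857_26 had 103 and 71 (1.34, 0.980 to 1.84). The lowest of this group differed less from equal values. PC-3p-145999_24 had 44 raw reads at 24 h, against 60 at 0 h (0.673, 0.448 to 1.02), PC-3p-29549_122 had 109 and 145 (0.697, 0.536 to 0.896), and PC-5p-84600_42 had 76 and 86 (0.821, 0.591 to 1.12). Only the interval of PC-3p-29549_122 among these 3 lay below equal values. PC-5p-186954_19 reached the minimum of reads only at 24 h and PC-3p-145999_24 only at 0 h, so the minimum favours their direction.

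Among those beginning with G, the highest folds were those of PC-5p-174962_20, with 71 raw reads at 24 h, against 44 at 0 h (1.50, 1.01 to 2.22), PC-5p-22707_159, with 123 and 79 (1.44, 1.07 to 1.93), and PC-5p-22031_164, with 88 and 57 (1.42, 1.01 to 2.03). The lowest were PC-3p-169609_21, with 36 raw reads at 24 h, against 58 at 0 h (0.566, 0.367 to 0.883), PC-5p-41213_87, with 67 and 103 (0.606, 0.435 to 0.825), and PC-3p-66873_53, with 40 and 57 (0.654, 0.421 to 0.988). All 6 intervals lay on 1 side of equal values, and none lay wholly beyond 2-fold. These 6 were picked as the most extreme folds, which favours such intervals. PC-5p-174962_20 reached the minimum of reads only at 24 h, and PC-3p-169609_21 and PC-3p-66873_53 only at 0 h. The minimum therefore also favours the direction of these members.

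By arm, 45 members were assigned to 3p and 29 to 5p, a share of 60.8% on 3p, against 61.9% of the 155 candidates beginning with A. The 5p members had a median log2 fold of 0.20, with 17 higher at 24 h and 12 lower, and the 3p members of -0.11, with 18 higher and 26 lower. From raw reads the medians were 0.32 for 5p and 0.01 for 3p, so that the sign for 3p depended on the scaling. With the authors' scaling, the counting interval lay above equal values for 7 of the 5p members and 5 of the 3p members, and below them for 1 and 9. The largest family was wholly on 3p, and without it the 32 other 3p members had a median of 0.02. Within the candidates beginning with A, the medians were -0.02 for 5p and -0.11 for 3p, and 0.08 and 0.003 from raw reads.

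The largest family of related sequences held 13 members. Members were joined when they shared a run of at least 12 identical bases on the same or the opposite strand. All 13 began with T and were assigned to the 3p arm, and each had 1 precursor. Against the most abundant of them, PC-3p-1251_2450, 7 started at the same base, 1 started 1 base further on and 5 started 2 bases further on. They are listed by shared seed to show how their starts and bases differ; 3 of them were found without a mismatch in 3 different precursors, so the names do not come from 1 locus alone. The seed TTAACTG was shared by 5 members:
PC-3p-1251_2450: tTTAACTGagaaaattgacggaat
PC-3p-30774_117: tTTAACTGagaaaattgacggaaa
PC-3p-48705_74: tTTAACTGagaaaattgacgacat
PC-3p-41923_86: tTTAACTGagagaattgacggaat
PC-3p-35703_101: tTTAACTGagaaaattgatggaat
The seed AACTGAG was shared by 4 that started 2 bases further on:
PC-3p-5056_694: tAACTGAGaaaattgacggaatga
PC-3p-22179_163: tAACTGAGaaaattgacggaataa
PC-3p-70487_50: tAACTGAGagaattgacggaatga
PC-3p-48028_75: tAACTGAGaaaattgtcggaatga
The other 4 had a seed of their own:
PC-3p-5672_625: tCTAGCTGagaaaattgacggaat
PC-3p-26946_134: tTAACTGAgaaaattgacggaatg
PC-3p-51336_70: tTGAACTGagaaaattgacggaat
PC-3p-54393_66: tAGCTGAGaaaattgacggaatga
With positions counted from the 5′ end of PC-3p-1251_2450 and its base given first, PC-3p-35703_101 differed by C19T, PC-3p-30774_117 by T24A, PC-3p-41923_86 by A12G, PC-3p-51336_70 by T3G, PC-3p-48705_74 by G21A and A22C, and PC-3p-5672_625 by T2C and A5G. Among those starting further on, PC-3p-70487_50 carried A12G, PC-3p-54393_66 A5G and PC-3p-48028_75 A18T, and the other 3 had no substitution within the bases that overlap PC-3p-1251_2450. Beyond that overlap, PC-3p-22179_163 differed from PC-3p-5056_694 by G23A, counted from the 5′ end of PC-3p-5056_694.

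The family was lower at 24 h. Its members had 1934 raw reads at 24 h, against 2139 at 0 h, a summed fold of 0.835 (0.785 to 0.888), and a median log2 fold of -0.31. Of the 13, 11 were lower at 24 h and 2 were higher, and this split was the same under each of the 5 other scalings tried. With the authors' scaling, the interval lay below equal values for 5 members and above for 1. PC-3p-5672_625 was the exception, with 310 raw reads at 24 h, against 231 at 0 h (1.24, 1.04 to 1.48), and PC-3p-48028_75 had 53 and 44, a fold of 1.13 (0.732 to 1.70). The other 61 members had a median of 0.09, with 33 higher, 27 lower and 1 equal. When 50 raw reads were required in both libraries, 9 members of the family remained, with a median log2 fold of -0.28.

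Within the family, PC-3p-26946_134, the register 1 base further on, had 61 raw reads at 24 h, against 86 at 0 h (0.658, 0.464 to 0.920). PC-3p-48705_74 had 99 and 135 (0.683, 0.517 to 0.884). With the authors' scaling, both were lower beyond counting error, as were PC-3p-1251_2450, PC-3p-5056_694 and PC-3p-35703_101. PC-3p-30774_117 had 153 raw reads at 24 h, against 171 at 0 h, PC-3p-41923_86 had 82 and 92, PC-3p-22179_163 had 64 and 73, and PC-3p-70487_50 had 55 and 58. PC-3p-51336_70 had 45 and 55, and PC-3p-54393_66 had 44 and 52. The folds of these 6 lay between 0.760 and 0.868, and each interval included equal values.

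**Figure D3:**
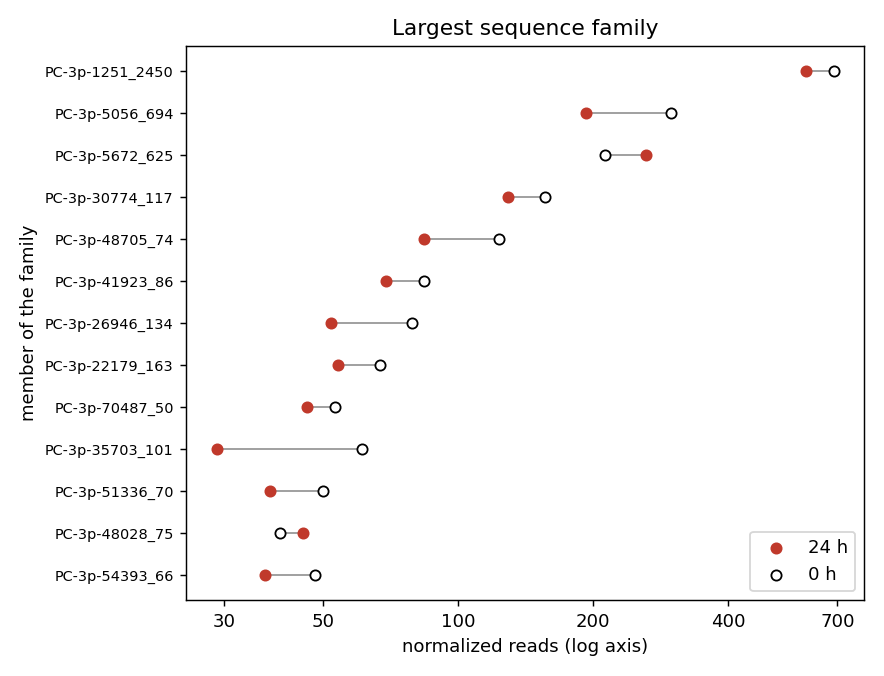
Normalized reads (x axis, log) of the 13 members of the largest sequence family (y axis, most abundant at the top) at 24 h (filled) and at 0 h (open), 1 library each. The filled point lies left of the open one in 11 of 13, and right of it for PC-3p-5672_625 and PC-3p-48028_75.

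Listed names outside the 74 that shared a run with this family were also mostly lower at 24 h. There were 46 such names, none matching on the opposite strand. Of the 44 with at least 10 raw reads, 30 were lower at 24 h and 12 higher, with a median log2 fold of -0.24. The 13 that had 24 nt, began with A and reached 50 raw reads counted 11 lower and 2 higher, with a median of -0.32 and 1160 raw reads at 24 h against 1349 at 0 h. Over all 816 new 24 nt candidates with at least 10 raw reads, 52.1% were lower and 43.0% higher. These names were counted from distinct reads, but they overlap in sequence, so their folds may not be independent.

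The members beginning with T had the lowest median GC content by first base, and those outside this family had the same median as all of them. The median GC content was 37.5% for T, 50% for C and 45.8% for G, against 50% for the candidates beginning with A. All 24 bases were counted, so the first base itself raises the content for C and G. Part of the gap between T and these groups is therefore set by the grouping. The run GACGGA, searched on both strands, was in 16 of the 74 members (21.6%) and in 6 of the 61 outside the family (9.84%). It was in 9.68% of the abundant candidates beginning with A and in 8.58% of all new 24 nt candidates. Relatives of the family, many with this run, were left in both sets, 13 of them among the abundant candidates beginning with A. The second set also held the family itself. These shares are therefore not like for like with the 9.84%, and nothing is read from their difference. A match of this length is a description and does not name a binding protein.

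In all, 14 families of 2 or more held 46 members and 28 members stood alone. A smaller family of 3 members, with starts up to 6 bases apart, was higher at 24 h throughout. The 3 sequences are shown because 2 of them have the same seed and differ near the 3′ end:
PC-3p-5200_676: gAAATATTaggttattcgtcggca
PC-5p-92412_38: gAAATATTaggttattcgtcggta
PC-5p-70645_50: tTAGGTTAttcgtcggcaaaaaca
PC-3p-5200_676 had 189 raw reads at 24 h, against 147 at 0 h (1.19, 0.952 to 1.48), PC-5p-92412_38 had 116 and 80 (1.34, 0.998 to 1.80), and PC-5p-70645_50 had 130 and 94 (1.28, 0.972 to 1.68). None of the 3 intervals alone excluded equal values with the authors' scaling. Their summed fold was 1.25 (1.08 to 1.45).

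The other families of 3 or more did not move as one. A family of 5, which held PC-3p-35643_101, PC-5p-41213_87, PC-3p-145999_24, PC-5p-154087_23 and PC-5p-174962_20, had 4 members lower and 1 higher, or 2 lower and 3 higher from raw reads, with a summed fold of 0.877 (0.756 to 1.02). In it, PC-3p-35643_101 had 117 raw reads at 24 h, against 114 at 0 h, and PC-5p-154087_23 had 56 and 53. A family of 4, with PC-3p-29549_122, PC-3p-46169_78, PC-3p-79114_45 and PC-3p-66873_53, had 3 lower and 1 higher, with a summed fold of 0.834 (0.714 to 0.966). Of these, PC-3p-46169_78 had 85 raw reads at 24 h, against 88 at 0 h, and PC-3p-79114_45 had 99 and 80. A family of 3, with PC-5p-22031_164, PC-5p-92591_38 and PC-5p-23322_155, had 2 higher and 1 lower, with a summed fold of 1.15 (0.935 to 1.45). PC-5p-23322_155 had 56 raw reads at 24 h, against 39 at 0 h, and PC-5p-92591_38 had 44 and 53. The 3 sequences of this last family overlap, and the first 2 below share their seed:
PC-5p-22031_164: gAGGACTTtcaaatgaacggttgg
PC-5p-23322_155: gAGGACTTtcgaatgaacggttgg
PC-5p-92591_38: gATGGACTtttgaatgaacggttg

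Most members had relatives among the rest of the listed names. A run of 12 or more bases was shared by 67 members with a name outside the 74, by 58 with a 24 nt candidate beginning with A, and by 6 with no other name at all. The nearest name was a known miRNA for 0 members.

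By the number of precursors, 67 members had 1 and 7 had 2, and the 74 came from 80 precursors in all. Of the 7, 6 were higher at 24 h and 1 was lower, or all 7 higher from raw reads, with a median log2 fold of 0.32, while the 67 had 29 higher, 37 lower and 1 equal, with a median of -0.06, or 0.07 from raw reads. The 7 were PC-3p-391_7887, PC-3p-8944_402, PC-3p-5200_676, PC-5p-22031_164, PC-5p-34254_105, PC-5p-78194_45 and PC-3p-86360_41. PC-5p-78194_45 had 62 raw reads at 24 h, against 47 at 0 h (1.21, 0.820 to 1.82), and PC-3p-86360_41, the lower one, had 76 and 75 (0.928, 0.671 to 1.30). With 7 names, 4 of which had an interval above equal values, this count remains a description of these 2 libraries.

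A partner, meaning a second listed name on the same precursor, was found for 20 members (27.0%), against 80 of the 155 candidates beginning with A (51.6%). The 20 members formed 19 pairs, because PC-3p-11562_311 and PC-5p-65169_55 were partners of each other. Over the 19 pairs, 18 partners had 24 nt and 9 began with A. The member had more reads than the partner in 16 pairs, and in 3 pairs the partner had more. Members were chosen by a minimum of reads that partners did not have to reach. An excess of reads in the member is therefore favoured by the rule, and nothing about the arms is read from this count. Member and partner were on the same side of equal values in 12 pairs, on opposite sides in 5, and 1 of them was equal in 2.

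The largest ratios between member and partner were those of PC-3p-8944_402 and PC-3p-9947_361. High ratios are likewise favoured by the minimum of reads that only members had to reach, and all ratios are given as a description. PC-3p-8944_402 had 1076 raw reads over both libraries and its partner PC-5p-258187_14 had 34, with 17 in each library, a ratio of 31.6. For PC-3p-9947_361 the partner PC-5p-235795_15 had 14 raw reads at 24 h, against 17 at 0 h, a ratio of 29.1. PC-5p-5863_606 had 164 raw reads at 24 h, against 170 at 0 h, 17.6 times its partner PC-3p-156553_23, and PC-3p-30774_117 had 15.4 times the reads of PC-5p-588243_7. In the opposite sense, PC-5p-154087_23 had 0.196 and PC-5p-174962_20 had 0.229 times the reads of partners that begin with A. PC-3p-10529_341, the partner of PC-5p-154087_23, had 281 raw reads at 24 h, against 275 at 0 h, and PC-3p-45877_78, that of PC-5p-174962_20, had 249 and 253. PC-3p-35643_101 had 0.899 times the reads of PC-5p-96545_37, the pair closest to equal on that side.

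**Figure D4:**
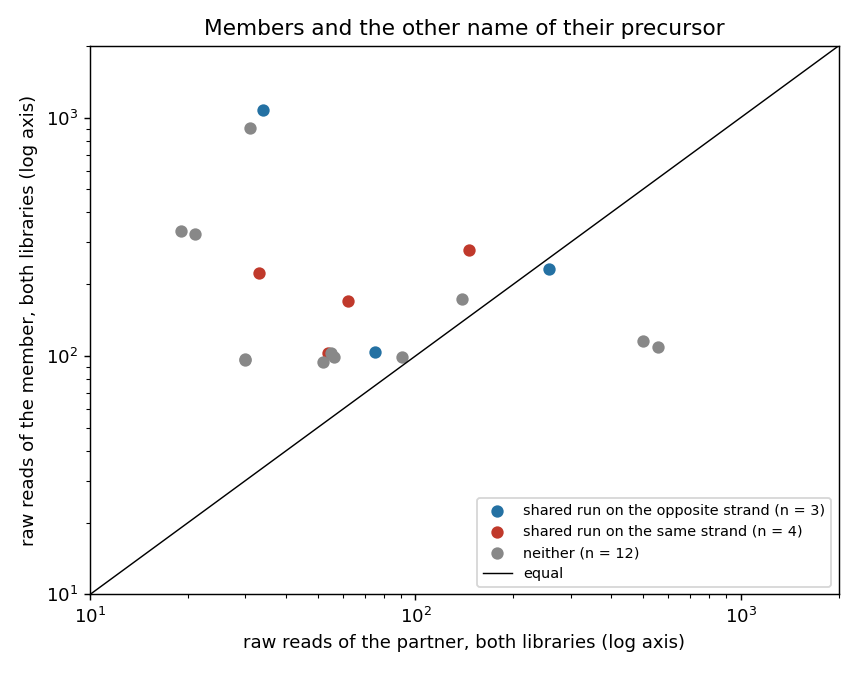
Raw reads over both libraries of the member (y axis) and of the partner on the same precursor (x axis), both on log axes, for 19 pairs. Colours mark pairs that share a run of 12 or more bases on the opposite strand (3), on the same strand (4) or neither (12). In 16 pairs the point lies above the line of equal reads, a side favoured by the minimum of reads that only members had to reach.

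Few partners shared a long unbroken run of complementary bases, and pairing broken by mismatches was not searched. A run of 12 or more bases in reverse complement was shared in 3 of 19 pairs, and in 12 pairs there was no such run on either strand. PC-3p-8944_402 and its partner were reverse complements over all 24 bases, and are shown for that reason:
PC-3p-8944_402: tGCGGATTtctttcatgatggtat
PC-5p-258187_14: aTACCATCatgaaagaaatccgca
In 4 pairs the partners overlapped on the same strand, so that both names covered 1 stretch although 1 was named 5p and the other 3p. PC-5p-65169_55 began 3 bases before PC-3p-11562_311 and shared 21 bases with it, and PC-5p-41213_87 overlapped PC-3p-38862_93 in the same way. PC-5p-70645_50 shared 23 bases with PC-3p-126031_28 and PC-5p-56438_63 shared 17 with PC-3p-129857_27, a partner of 20 nt. The first pair is:
PC-5p-65169_55: gGCTAAAGtttggactatagcaga
PC-3p-11562_311: tAAAGTTTggactatagcagacga
PC-5p-65169_55 had 78 raw reads at 24 h, against 68 at 0 h (1.06, 0.755 to 1.49), while its partner in the other register, given above, was higher at 24 h beyond counting error.

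The remaining pairs had members of similar, low level. PC-5p-136857_26, with 1.25 times the reads of PC-3p-92988_38, and PC-3p-145999_24, with 1.39 times those of PC-5p-232670_16, were near balance, as was PC-3p-320320_11, with 45 raw reads at 24 h, against 54 at 0 h, at 1.09 times PC-5p-146981_24. PC-3p-170785_21 had 53 raw reads at 24 h, against 46 at 0 h, PC-3p-91155_39 had 53 and 41, and PC-3p-343892_11 had 48 and 55. The ratio to the partner was 1.77 for PC-3p-170785_21, 1.81 for PC-3p-91155_39, 1.87 for PC-3p-343892_11 and 1.91 for PC-5p-56438_63. It was 3.20 for PC-5p-376895_10, 3.23 for PC-3p-66873_53, 2.74 for PC-5p-41213_87 and 6.79 for PC-5p-70645_50. The 20 members with a partner had a median log2 fold of -0.07, with 8 higher and 12 lower, and the 54 without one of 0.01, with 27 higher, 26 lower and 1 equal. From raw reads the medians were 0.06 and 0.11.

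Precursor sequences, taken by the study from the Fragaria vesca genome, were read for 42 of the 74 members, as 45 hairpins of 103 to 263 bases with a median of 190. These were 28 of the 29 members named 5p but only 14 of the 45 named 3p, so the values below describe only the hairpins read. In 26 hairpins the member was found without a mismatch and in 19 with 1 substitution, and 18 of the 42 members differed from each precursor read here. When the hairpins were folded with RNAfold, the predicted energy ran between -70.3 and -21.7 kcal/mol per 100 bases, with a median of -44.7. Between 16 and 24 of the 24 bases of a member were paired, with a median of 22, and all 24 were paired in 11 hairpins. All 14 members named 3p that were folded paired mostly with bases before them. Of the 28 folded members named 5p, 5 also paired mostly with bases before them, as a 3p arm does, and 3 of these 5 were in pairs that overlapped on the same strand.

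The hairpins read often held more than their own member. In 31 of the 42 members, the hairpin also contained, on either strand and without a mismatch, the full sequence of at least 1 other listed name, 79 such names in all, of which 30 had 24 nt and began with A and 0 were known miRNAs. The hairpins of 9 members contained another member. Some examples follow, each with its own member in capitals. The hairpin of PC-3p-35703_101, the member past 2-fold, is 1 of 3 read here for the largest family and contains a perfect inverted run of 22 bases:
PC-3p-35703_101 precursor: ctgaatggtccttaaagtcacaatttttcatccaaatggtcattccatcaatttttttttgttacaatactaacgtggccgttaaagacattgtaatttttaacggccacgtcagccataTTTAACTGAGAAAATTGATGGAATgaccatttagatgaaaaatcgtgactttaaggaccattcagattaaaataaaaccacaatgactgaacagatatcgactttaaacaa
That of PC-3p-8944_402 has a run of 36 bases in perfect inverted repeat, which includes the member and its partner:
PC-3p-8944_402 precursor: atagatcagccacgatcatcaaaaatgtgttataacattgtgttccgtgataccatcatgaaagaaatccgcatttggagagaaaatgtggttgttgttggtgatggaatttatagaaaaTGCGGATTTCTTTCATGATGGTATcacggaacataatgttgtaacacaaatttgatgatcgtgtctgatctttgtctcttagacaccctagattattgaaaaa
Among the hairpins read, that of PC-5p-23322_155 has the longest such run, 57 bases. It differs from the member by A11G (hairpin base first, positions from the 5′ end of the member):
PC-5p-23322_155 precursor: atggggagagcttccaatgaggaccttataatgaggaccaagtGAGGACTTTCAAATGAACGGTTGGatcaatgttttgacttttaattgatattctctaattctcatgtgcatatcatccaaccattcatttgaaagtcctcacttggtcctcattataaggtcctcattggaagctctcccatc
The same hairpin held the members PC-5p-22031_164, PC-5p-34254_105 and PC-5p-56438_63. PC-5p-22031_164 started at the same base as PC-5p-23322_155, PC-5p-34254_105 started 18 bases before it, and PC-5p-56438_63 matched the opposite strand. PC-5p-34254_105 was also found on the opposite strand of it. PC-5p-56438_63 had 53 raw reads at 24 h, against 50 at 0 h (0.978, 0.652 to 1.47), whereas PC-5p-22031_164 and PC-5p-34254_105 were higher at 24 h, as given above.

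The degradome table named 0 of the 74 members as the small RNA of a cleaved target. With 74 names, a count of 0 allows a share of up to 4.05%, and 3.02% of all 1225 new candidates had a row, so a lower share among the members was not detectable. One of the 155 abundant candidates beginning with A had a row, 5 of all 862 new 24 nt candidates (0.580%) and 26 of the 168 new candidates of 21 nt (15.5%). The table had 152 rows for 75 small RNAs. None of the 20 partners and none of the 46 relatives of the largest family was named in it.

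Some relatives of members were named. Of the 416 names that shared a run of 12 or more bases with a member, all new candidates, 6 had a row (1.44%), against 31 of the 735 new candidates that were neither members nor such relatives (4.22%). The 2 sets were not matched for length, and the share with a row differed widely between new candidates of 21 nt and 24 nt, as given above. The 6 names had 9 rows, 8 in category 4 and 1 in category 2. PC-3p-59987_60, of 21 nt, lies wholly within PC-3p-29549_122 and had 109 raw reads at 24 h, against 103 at 0 h. It was listed with 4 target genes without a known annotation, all in category 4, the weakest class of degradome evidence, in which a single read marks the cleavage site. Each of these 4 rows had 0.25 normalized degradome reads, and whether they rest on separate reads was not tested. PC-5p-176409_20, of 19 nt, shares 13 bases with PC-3p-91155_39 and had the row in category 2, with 5 normalized degradome reads at the site and a target annotated as highly ABA-induced PP2C gene 2, a protein phosphatase. PC-3p-29513_122 and PC-3p-140510_25 share 15 and 16 bases with PC-3p-79114_45, and each was listed in category 4 with 1 target annotated as Target of Myb protein 1. PC-3p-24717_146 and PC-3p-90212_39 each had 1 target in category 4 without a known annotation. The authors' p-values for the 9 rows, from a binomial model of the degradome reads, lay between 0.180 and 0.949. These rows name the relatives and not the members. The member PC-3p-29549_122 itself, 3 bases longer, had 109 raw reads at 24 h, against 145 at 0 h and no row.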

How the data were processed

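Small RNA reads of 1 fruit library stored for 24 h and 1 at 0 h were analysed, with 1 degradome library of both. The raw counts are the authors' reads per mature sequence, obtained with their pipeline ACGT101-miR 4.2 once adaptors, mRNA and Rfam matches had been filtered out. Reads were mapped by them to miRBase, and new candidates to the genome of Fragaria vesca. The deposited normalized reads, treated as a score, are whole numbers that lay within 1 read of raw reads times 1 factor per library for 1308 of 1310 names in each library, and their formula is not stated. For each degradome row the deposited alignment score, category and p-value came from CleaveLand 3.0 and ACGT301-DGE 1.0, as run by the authors, who also gave the signal, the degradome reads found at the site of cleavage.

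Names repeated over precursors were counted once. Folds are normalized reads at 24 h over 0 h, with exact conditional binomial intervals of the raw reads at a confidence level of 95%, and were called past 2-fold at a log2 above 1 or below -1. Because there was 1 library per storage time, no test between storage times was made. PCR reads are not independent molecules, so intervals and the limit of 3 counts for a count of 0 cover counting error only. Members were joined into families by a shared run of 12 bases. A precursor number was matched within the new candidates only, since numbers start again in each group of the table. Sequences of hairpins were read from the supplementary precursor table, of which only part was used here, and folded with RNAfold 2.7.2; no value of that table was used. Named are the 10 members with most reads, all past 2-fold, the 3 highest and 3 lowest folds per first base, those with 2 precursors or a partner, those in families of 3 or more and those nearest the minimum of 50 reads; others were named after their values were seen. The members and lists were chosen with earlier results of these data known. Scalings by raw reads, listed total, mappable reads, edgeR 4.0.16 TMM factors and DESeq2 1.42.0 size factors, a pseudocount of 1 and other minimums were tried. Calculations used Python 3.11.15 and R 4.3.3, and the scripts for intervals and families were tested on simulated data. Columns of values that belong to no sample numbered 0.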

Additional observations from a re-analysis of the deposited data

How the results depend on the processing

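With 1 library per storage time and mostly under 100 raw reads per member, differences under about the width of the counting intervals were not detectable, and no spread between fruits is known. No paired analysis was possible because each storage time has 1 library and no test was made. Of 108 recomputed values, 80 were classed as the same, 16 as moved and 12 as reversed in sign. Some of the reversed values moved by less than their counting margin. Raw reads without scaling and scaling by the total of listed reads shift every log2 fold by 0.115 and 0.119. The median log2 fold of the members then reversed to 0.0901 and 0.0938, that of members beginning with T moved to -0.0721 and -0.0684, that of candidates beginning with A reversed to 0.0498 and 0.0535, the log2 of the summed fold moved to 0.30 and 0.31, and without PC-3p-391_7887 that log2 reversed to 0.11 and 0.12; the signs of 8 members changed. This log2 without PC-3p-391_7887 was -0.00217 with the authors' scaling and also changed sign, to 0.0163 with TMM factors, 0.00935 with DESeq2 size factors, 0.0107 with 50 reads in both libraries and 0.0259 with 100 reads in a library. With mappable reads, TMM factors and DESeq2 size factors, the signs of 0, 1 and 0 members changed, and the median of the members stayed below 0.

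The call of PC-3p-35703_101 was lost, leaving 0 members lower, under raw reads, the listed total, 50 reads in both libraries, 100 reads in a library, and the demand that the whole interval lie beyond 2-fold. A minimum of 100 reads left 27 members and gave medians of 0.12 for T, -0.0206 for C and 0.12 for G, with T no longer lowest, and a summed log2 fold of 0.23. A minimum of 10 reads gave 326 members, with 12 higher and 14 lower past 2-fold, a median of -0.00684 for T and a summed log2 fold of 0.15. The median of the family of PC-3p-1251_2450 stayed below 0 under the other scalings and the pseudocount, between -0.31 and -0.19, and under other minimums, where it held 9 members (50 reads in both libraries), 5 (100 reads) or 31 (10 reads). It was not computed for other linking runs. With a linking run of 14 bases, 30 members in place of 46 were in a family, and the largest still held 13. With 11 bases, 52 were in a family and the largest held 14, joined by PC-3p-197218_18, which begins with G. The cause of these changes was not tested, other than the shift that the scalings add by construction and the change in members under other minimums.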
